A study of Mus musculus with 2 samples.

Results

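The spots described here were the 80 spots, 40 in each of 2 Visium brain sections, with the highest combined level of Pmch, which encodes the precursor of melanin-concentrating hormone (MCH), and Hcrt, which encodes the precursor of the orexins. They were chosen from the 7173 spots that held at least 2000 UMIs (unique molecular identifiers, 1 per captured RNA molecule), 3651 in the section labelled trained and 3522 in the section labelled untrained. The score of a spot was the mean over the 2 genes of the natural log of 1 plus the UMIs of the gene per 10000 UMIs of the spot, and the 40 highest scores of each section made the members. Because Pmch and Hcrt chose the members, the levels of these 2 genes describe the choice. The working name of the spots was the MCH and orexin spots of the lateral hypothalamus. The levels of the 2 genes that chose the spots cannot bear this name out. Only in the section labelled untrained did members hold 10 or more Pmch UMIs and most of them lie in 1 patch. Hcrt rested on 10 trained and 6 untrained UMIs. The spots are therefore called Pmch and Hcrt members below.

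MCH and orexin are neuropeptides made by separate, intermingled neurons of the lateral hypothalamus and the neighbouring zona incerta. Both cell types send axons over much of the brain. MCH neurons are known for their part in feeding, energy balance and rapid eye movement sleep, and orexin neurons for holding wakefulness and for driving reward seeking. Their bodies lie in the tuberal part of the hypothalamus, so that a coronal cut a little further forward or back meets few of them.

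Both mice were adult male ArcCreERT2::eYFPflx animals on a C57BL/6 background, in which the promoter of the activity-dependent gene Arc drives a tamoxifen-dependent Cre recombinase and Cre switches on the fluorescent protein eYFP. The mouse of the first group had been trained in active place avoidance, in which an animal on a rotating arena learns to keep away from a zone where it receives a mild foot shock. The mouse of the second group had spent its sessions on the same arena with no active shock zone, and both brains had been frozen after the retention test. Each coronal section held the dorsal hippocampus of both sides, and each spot of the slide covered several cells and their neuropil. With 1 section of 1 mouse per group, group, animal, cutting plane and library cannot be told apart, spots are not replicates, and no test was possible. Levels are given as CPM, the UMIs of a gene in pooled spots scaled to a total of 1000000 UMIs, and the intervals given are 95% intervals that cover counting error only. In pooled spots, fewer cells of a type and less RNA per cell cannot be told apart.

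The section labelled trained held 29515831 UMIs in 4152 spots and the section labelled untrained 59029131 UMIs in 3738 spots. The members held 241806 UMIs in the trained section, with a median of 6219 UMIs per spot against 6632 in the remaining spots. They held 559879 UMIs in the untrained section, with a median of 14937 against 14375. The mean was 6045 UMIs per trained member against 7978 in the remaining spots, and 13997 against 16750 in the untrained section, so members were shallower than the rest by the mean. The deepest trained member held 9122 UMIs. Mitochondrially encoded genes took 14.2% of the UMIs of the trained members and 12.2% of the remaining spots, against 17.7% and 16.1% in the untrained section. Of the trained members 2 were also among the 200 spots richest in a set of markers of the cortex and hippocampus, with Slc17a7 and Nrn1 among them, which should lack both peptides, and none of the untrained members was.

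Genes rich in one section were also counted at the same positions of the other section. Slide spots carry fixed barcodes, and 3448 barcodes, 83.0% of those of the trained section and 92.2% of those of the untrained section, occurred in both sections, each at the same grid position. The barcodes of the highest Oxt and Pmch spots are given because this sharing bears on every comparison between the sections. Oxt, the precursor of oxytocin, was the highest in the trained section at:
Oxt 1: gaagcctgcacattcc
Oxt 2: agcccgcaacaagcag
Oxt 3: ggctttcaataagggt

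At Oxt 1, in grid row 61 and column 61, the trained section held 1773 Oxt UMIs and the untrained section 380. At Oxt 2 the values were 1563 and 336, and at Oxt 3 they were 1485 and 278. The 10 highest Oxt spots of each section were the same 10 barcodes. Over those of the trained section, 11215 UMIs faced 2250 UMIs, or 20.1% with a range of 17.6% to 21.5% from spot to spot. For the other genes read in this way fewer of the 10 highest spots were shared, 5 for Cartpt, 4 for Pmch, 2 for Penk and 0 for Ttr. Penk, also richer in the trained section, gave 666 and 163 UMIs, which is 24.5% with a range of 11.9% to 39.1%.

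The opposite direction was seen for genes richer in the untrained section, with smaller shares. Ttr, the transthyretin gene of the choroid plexus, had 168883 UMIs in its 10 highest untrained spots and 8971 UMIs at the same barcodes of the trained section, which is 5.31% with a range of 3.89% to 6.08%. Cartpt, the precursor of the CART peptide, gave 1240 and 59 UMIs, which is 4.76%. Pmch was the highest in the untrained section at:
Pmch 1: gcagtgtggctatagg
Pmch 2: tacagaaacggtgggc
Pmch 3: ggattgctgtgactcc
Pmch 4: acttccatgcgggaca

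At Pmch 1, in grid row 59 and column 83, the untrained section held 164 Pmch UMIs and the trained section 5. At Pmch 2 the values were 68 and 1, at Pmch 3 they were 53 and 1, and at Pmch 4 they were 28 and 3. The 5 and the 3 UMIs were also the highest trained values, since every other trained spot held 0 or 1. Pmch 3 also held the most Hcrt of any member, 4 UMIs in the untrained section and 1 in the trained section. Over the 10 highest Pmch spots of the untrained section, 411 UMIs faced 15, which is 3.65%.

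**Figure D1:**
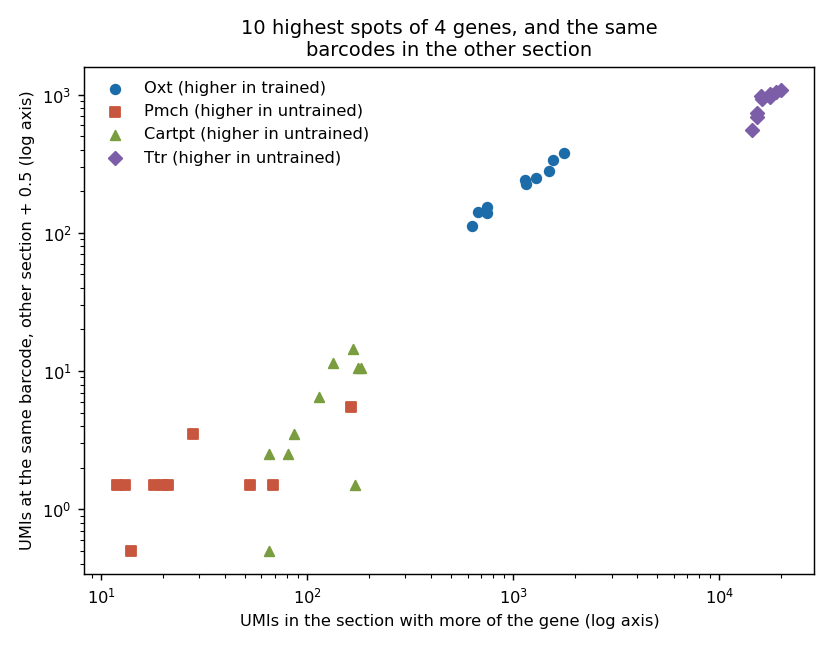
UMIs at the 10 highest spots of Oxt, Pmch, Cartpt and Ttr in the section richer in that gene (horizontal axis, log scale) and UMIs of the same gene at the same barcode of the other section plus 0.5 (vertical axis, log scale). Each point is 1 barcode. The Oxt points lie along 1 line, at 17.6% to 21.5% of the richer section, and those of Ttr along a lower one, at 3.89% to 6.08%. Pmch points lie at 0 to 5 UMIs in the trained section.

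The Pmch of the trained section was concentrated at barcodes where the untrained section had Pmch. At 217 shared barcodes with a Pmch UMI in the untrained section, the trained section held 33 Pmch UMIs, or 19.9 CPM (13.7 to 27.9). At the 3231 shared barcodes with none it held 21 UMIs, or 0.931 CPM (0.576 to 1.42), and at the 704 barcodes absent from the untrained section it held 2 UMIs, or 0.378 CPM. The 33 UMIs were 4.31% of the 765 that the untrained section held at those barcodes, and the Ttr share of 5.31% applied to the 765 comes to 40.6 UMIs. Of the 40 trained members, 22 lay at a barcode where the untrained section had a Pmch or Hcrt UMI, and 9 barcodes were members in both sections. How many of the trained Pmch UMIs came from the tissue of that section was not tested. The same question was not tested for any other gene in either section.

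Pmch, at chromosome 10 from 88091072 to 88092375 on mm10, was found at 773 UMIs in 225 spots of the untrained section and at 56 UMIs in 50 spots of the trained section. Moran's I, the authors' score for how alike neighbouring spots are, was 0.397 for Pmch in the untrained section, rank 117 of 21498 genes, and 0.115 in the trained section, rank 1268 of 20513. Hcrt, at chromosome 11 from 100761069 to 100762931, was found at 44 UMIs in 41 untrained spots and at 15 UMIs in the trained section. Its Moran's I was 0.013 in the untrained section and 0.0055 in the trained section, at ranks 11274 and 11955. Over the whole sections Hcrt was thus less alike between neighbouring spots than Pmch. At 1 grid step from the untrained spot with the most Pmch 4 Hcrt UMIs were counted, or 44.8 CPM (12.2 to 115), all in 1 member that Hcrt helped to choose.

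In the untrained members the 40 spots held 564 Pmch UMIs, or 1007 CPM (926 to 1094), against 3.57 CPM in the remaining spots. The lowest of the 40 members held 1 Pmch UMI, the median was 6.5 and the highest 164, and 14 members held 10 or more. In the trained members the 40 spots held 38 Pmch UMIs, or 157 CPM (111 to 216), against 0.59 CPM in the remaining spots. The lowest trained member held 0, the median was 1 and the highest 5. In 36 of the 40 trained members the choice rested on a single UMI of the 2 genes together, as it did in 5 of the 40 untrained members.

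Hcrt chose more of the trained than of the untrained members. Trained members held 10 Hcrt UMIs in 10 spots, or 41.4 CPM (19.8 to 76.1), and 8 of these members had no Pmch. Untrained members held 6 Hcrt UMIs in 3 spots, or 10.7 CPM (3.93 to 23.3), and every one of them also had Pmch. Elsewhere Hcrt was at 0.174 CPM in the trained section and 0.652 in the untrained section. Among the cortical and hippocampal spots, which should lack orexin neurons, Hcrt was seen in 2 of 200 trained and 9 of 200 untrained spots, which is 1% and 4.5%, at median depths of 11278 and 20952 UMIs. With every spot thinned to 2000 UMIs these shares came to 0.289% and 0.402%. Pmch was seen there in 0 of 200 trained spots, for which 3 counts allow a share of up to 1.5%, and in 4 of 200 untrained spots, which is 2%. The 2 trained spots with Hcrt were thus the 2 members that lay among those 200, while none of the 9 untrained spots was a member. Hcrt UMIs were therefore also counted where orexin neurons should be lacking.

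The score of the last trained member was 0.370, and that of the first spot below it 0.367, both with 1 Pmch UMI. The last untrained member scored 0.563 with 5 Pmch UMIs, and the next spot 0.561 with 2.

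In space, most untrained members lay together on one side of the section. Of the 40 members, 26 made up 1 connected patch in grid rows 58 to 66 and columns 82 to 90, in which each spot touched another member. This patch held 530 Pmch UMIs, 68.7% of all Pmch in the spots of sufficient depth, at 4 to 164 UMIs per spot with a median of 10, and its spots had 9321 to 29337 UMIs in all. Of the other 14 members, which held 34 Pmch UMIs, 12 lay along the lower edge of the section in rows 67 to 72, and 5 of the 40 had no other member within 2 grid steps. No cluster of like size lay on the other side of the section, where 5 of the 40 members fell in columns under 64.

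The trained members were spread wide. They lay in rows 8 to 68 and broke into 29 patches, and 18 had no other member within 2 steps. The largest patch held 10 spots in rows 58 to 63 and columns 82 to 87, inside the rows and columns of the untrained patch, with 16 Pmch UMIs of which 5 were in 1 spot. Of its 10 barcodes, 9 were members in the untrained section. The remaining 30 trained members held 22 Pmch and 9 Hcrt UMIs, with no spot above 1 UMI of either gene.

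**Figure D2:**
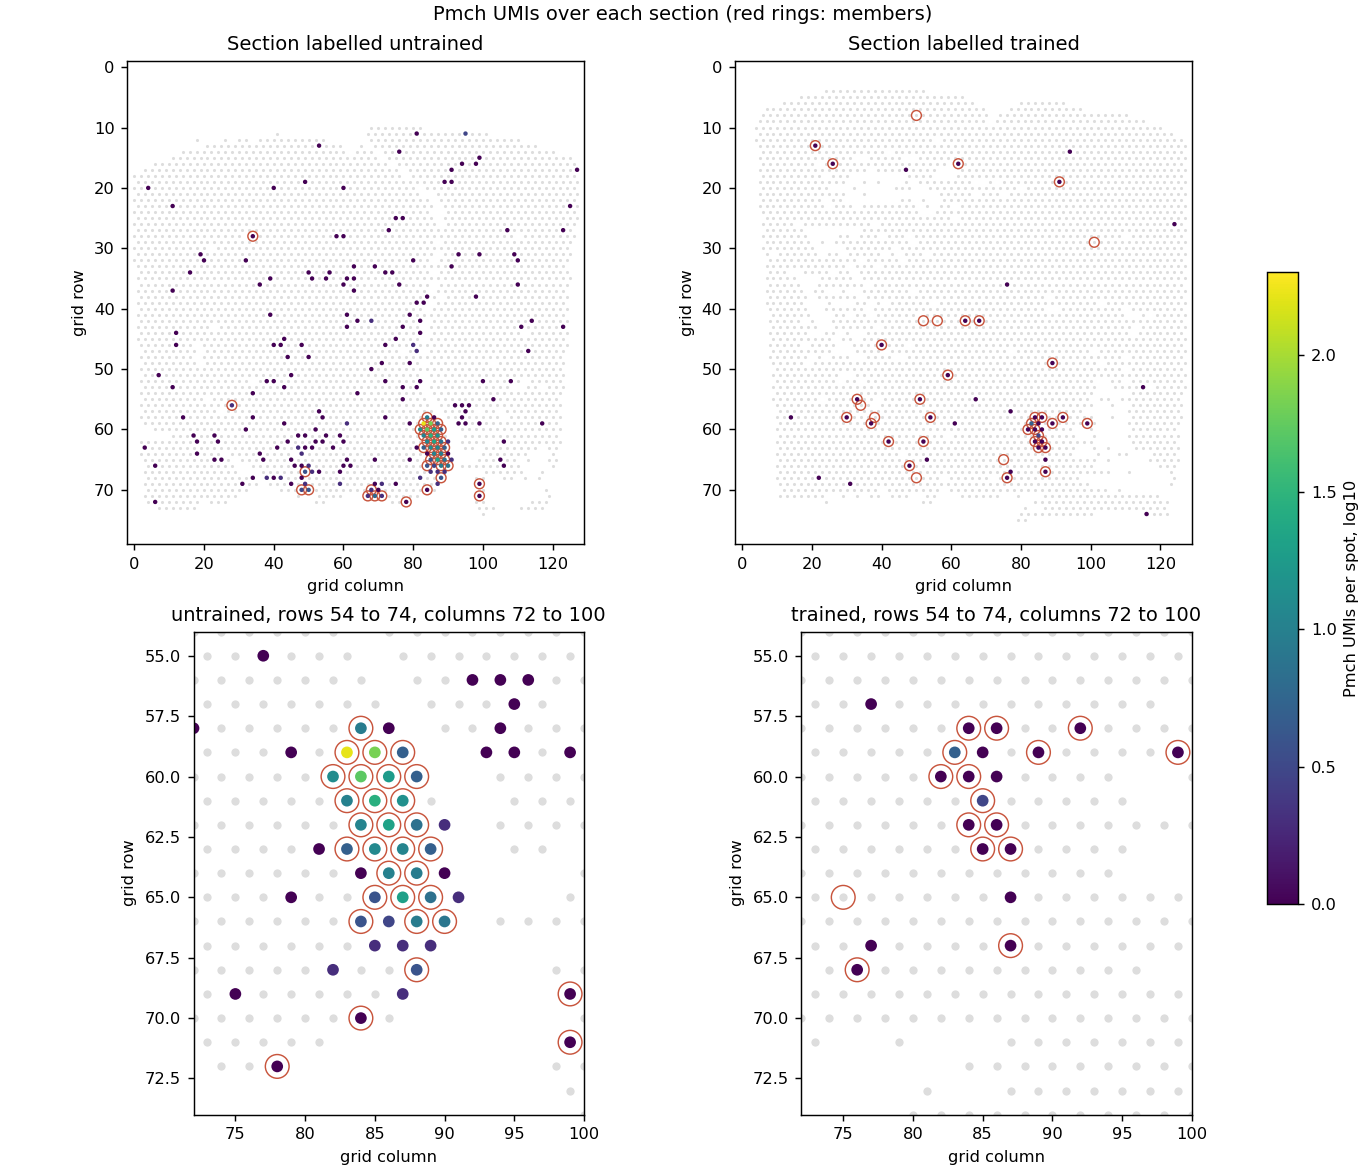
Pmch UMIs per spot over the section labelled untrained (left) and the section labelled trained (right), by grid column and grid row, with the whole section above and rows 54 to 74, columns 72 to 100 below. Grey points are spots with at least 2000 UMIs, coloured points hold Pmch (log10 of UMIs), and red rings are the 40 members of each section. The untrained rings gather in 1 patch of 26 spots, while trained rings are scattered and hold 0 to 5 Pmch UMIs each.

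With distance from the spot with the most Pmch, the untrained level fell steeply. It was 12990 CPM in that spot, 1602 in the 6 spots 1 step away, 368 at 2 steps and 239 at 3 steps. At 7 steps it was 42.7 and at 10 steps 5.95 CPM, close to the 3.57 of all remaining spots. Around the same barcode of the trained section, Pmch was at 890 CPM in the 1 spot, at 127 at 1 step, at 57.4 at 2 steps and at 16.8 at 3 steps. Both sections thus had their highest Pmch at the same barcode.

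**Figure D3:**
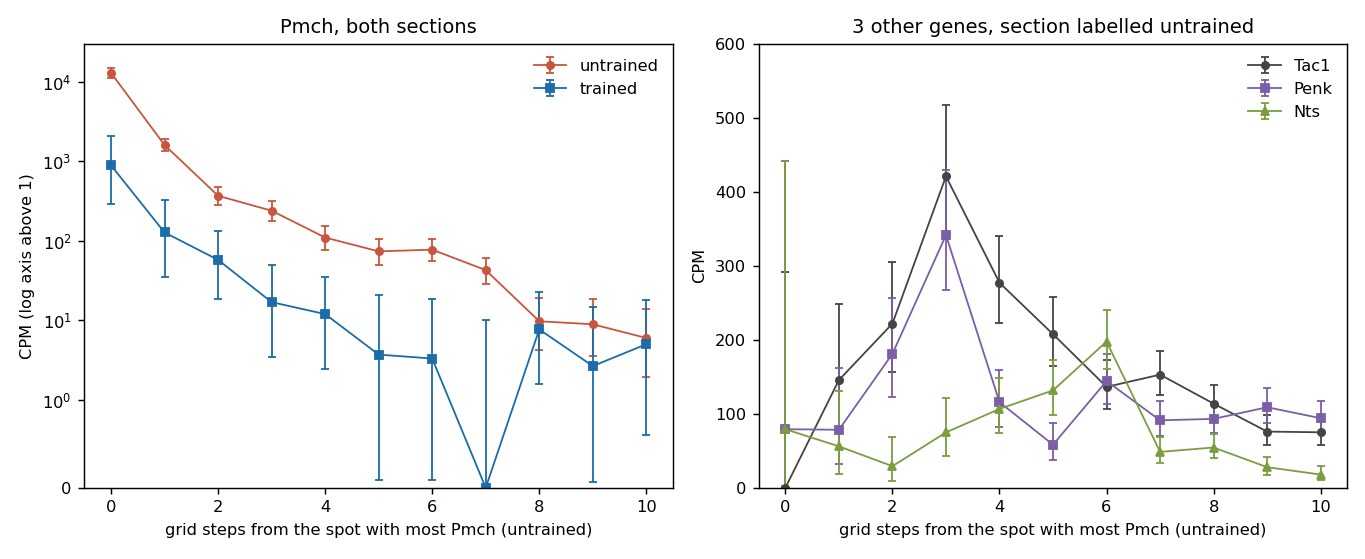
Left, Pmch in CPM (log axis above 1) by grid steps from the untrained spot with the most Pmch, at the same grid positions in both sections. Right, Tac1, Penk and Nts in CPM in the section labelled untrained over the same steps. Bars are 95% counting intervals. Pmch falls from 12990 CPM at 0 steps to 5.95 at 10, whereas the highest points of Tac1 and Penk are at 3 steps and that of Nts at 6, with wide intervals at 0 steps.

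Genes that MCH neurons are known to share were then read in the members. Cartpt, which many MCH neurons carry, was at 8 UMIs in trained members and at 18 in untrained members, with log2 ratios to the remaining spots of 0.60 (-0.70 to 1.50) and -0.74 (-1.54 to -0.12). In the trained section 5 of the 8 were in 1 spot, and in the untrained section 5 of the 18 were in 1 spot at grid row 71 and column 71. In the 26 members of the largest untrained patch, described above, Cartpt had 7 UMIs, at -1.79 (-3.21 to -0.85). Tacr3, the neurokinin B receptor, had 4 and 2 UMIs, at log2 ratios of 2.77 (0.70 to 4.02) in trained and 1.81 (-1.58 to 3.40) in untrained members. The gene Parpbp, which overlaps Pmch on the other strand, had 0 and 1 UMIs. None of these 3 genes was 2-fold higher with a clear interval in the members of both sections.

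Genes of both fast transmitters were present in the members of both sections. Gad2, an enzyme of GABA synthesis, had log2 ratios of 0.53 (0.13 to 0.88) in trained and 0.62 (0.26 to 0.94) in untrained members, and Gad1, the other such enzyme, -0.40 and -0.31. Slc17a6, the vesicular glutamate transporter of subcortical neurons, had 0.34 (-0.27 to 0.84) and 0.59 (0.23 to 0.91). Nnat, an imprinted gene of neuroendocrine cells, had 1.16 (0.81 to 1.47) and 0.79 (0.61 to 0.96). Scg2, a granin of peptide vesicles, had 0.56 (0.16 to 0.92) and 1.25 (1.07 to 1.43).

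Genes linked to orexin neurons were sparse. Pdyn, the dynorphin precursor that orexin neurons release, had 7 UMIs in trained and 8 in untrained members, at log2 ratios of -0.33 and -0.68 with intervals that held 0. Lhx9, a transcription factor of orexin neurons, had 3 and 2 UMIs, with log2 ratios of 0.26 in trained and -1.60 (-4.97 to -0.07) in untrained members, the latter 0.89 when spots were thinned. Nptx2, a pentraxin, had 4 and 9 UMIs. Igfbp3 had 0 and 5 UMIs, Rfx4 0 and 7, Ebf2 0 and 7, and Qrfp none in either section. Ebf2, an early B cell factor family transcription factor, reached a log2 ratio of 4.23 (2.75 to 5.32) in the untrained members, at 12.5 CPM against 0.703.

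The receptors of both peptides were near their limit of detection. Mchr1, the MCH receptor of rodents, had 2 UMIs in trained and 10 in untrained members, against 13.9 and 13.7 CPM in the remaining spots. Hcrtr1 had 2 and 3 UMIs and Hcrtr2 1 and 1. No difference between members and remaining spots was detectable for them at this depth.

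Against the remaining spots, 24 of 9329 genes compared, or 0.257%, were higher in the members of both sections by at least 2-fold with counting intervals clear of no difference. The comparison took in genes with no fewer than 300 UMIs in each section. In the untrained section alone 232 of 11182 genes (2.07%) were higher, and in the trained section alone 115 of 9348 (1.23%). The 24 genes were 15.0% of the 160 genes higher in untrained members on the shared set and 20.9% of the 115 higher in trained members. The median log2 ratio of all genes compared was -0.05 in the trained and -0.03 in the untrained section. The count turned on what the members were set against. Against the spots within 5 grid steps of a member 1 gene, Tac2, was 2-fold higher in both sections, and against the spots richest in Oxt and Avp, 40 in the trained section and 39 in the untrained section, 8 genes were, none of them among the 24. In that last comparison Gpx3 fell on the other side of 0, at -1.25 in trained and -0.82 in untrained members, as did Baiap3 at -1.23 and -0.56 and Resp18 at -1.52 and -0.42. The ratios that follow are against the section at large.

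Several of the 24 are known from peptide-releasing neurons of the hypothalamus. Gpx3, a secreted glutathione peroxidase, was at 128 CPM in trained members against 34.0, a log2 ratio of 1.94 (1.35 to 2.43), and at 164 against 44.3 in untrained members, a log2 ratio of 1.90 (1.57 to 2.19). It was seen in 18 trained and 30 untrained members. Baiap3, a protein of dense-core vesicle traffic, had log2 ratios of 1.78 (1.19 to 2.27) and 2.19 (1.84 to 2.51). Hap1, the huntingtin-associated protein that is abundant in the hypothalamus, had 1.62 (1.22 to 1.97) and 1.54 (1.30 to 1.76). These 3 genes gave overlapping intervals in the 2 sections.

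Mrap2, an accessory protein of the melanocortin receptors, had log2 ratios of 1.56 (0.42 to 2.38) in trained and 1.94 (1.39 to 2.41) in untrained members. Resp18, an endocrine protein of secretory granules, was at 715 CPM in trained members and 1175 in untrained members, with log2 ratios of 1.05 (0.82 to 1.26) and 1.65 (1.53 to 1.76). All 40 untrained members and 32 of the 40 trained members held it. Smaller counts put Igsf1 at 1.68 and 1.51, Glra2, a glycine receptor subunit, at 1.66 and 1.51, Ngb, the neuronal globin, at 1.73 and 1.38, Cd83 at 1.24 and 1.70 and Usp29 at 1.33 and 1.44. Insr, the insulin receptor, was 2-fold higher in the trained members, at 1.21 (0.08 to 2.03) from 10 UMIs, and had 0.46 in untrained members with an interval that held 0.

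Genes of astrocytes were also among the 24. Agt, the angiotensinogen gene that subcortical astrocytes express, had log2 ratios of 1.41 (0.97 to 1.80) in trained and 1.06 (0.80 to 1.30) in untrained members. Itih3 had 1.11 and 1.25, and Sparc, a matrix protein of glia and vessels, 1.16 and 1.19. Of the astrocyte list of 12 genes, 2 were higher in both sections, beside 0.257% of all genes, and 1, Gfap, was 2-fold lower in untrained members, beside 4.57%, at -1.71 (-2.77 to -0.93). Aqp4 had 0.32 and -0.52 and Slc1a2 -0.16 and -0.36. The list median was 0.37 in the trained and 0.32 in the untrained section. The summed level of the 12 genes was 3387 CPM in trained members against 2660 in the remaining spots, and 3351 against 2791 in the untrained section. In single spots it ran from 1864 to 8011 CPM in trained and from 1639 to 6008 in untrained members, and no gene of the list was at 0. The part of astrocytes in the other results was not tested.

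**Figure D4:**
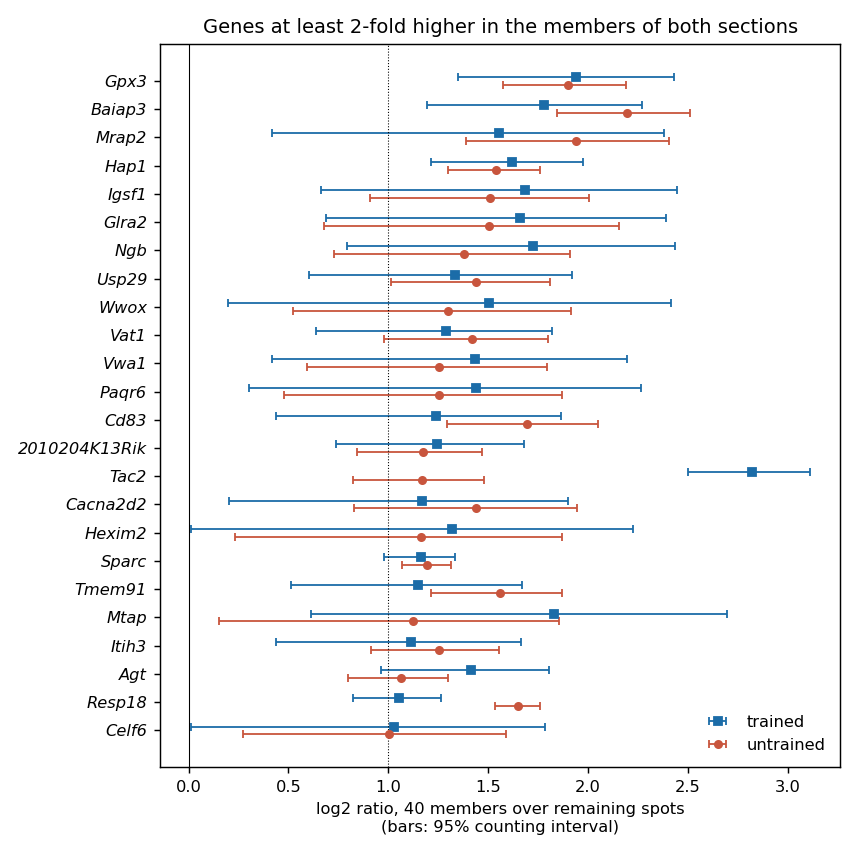
Log2 ratio of CPM in the 40 members over the remaining spots of the same section, for the 24 genes at least 2-fold higher in both sections. Squares are the section labelled trained, circles the section labelled untrained, bars are 95% counting intervals, and the dotted line marks 2-fold. Most pairs overlap, with the widest bars in the shallower trained section, and Tac2 stands apart at 2.82 against 1.17.

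Tac2, the precursor of neurokinin B, was the gene of the 24 that differed most between the sections. Trained members held 97 UMIs, or 401 CPM against 57.1, a log2 ratio of 2.82 (2.50 to 3.11). These UMIs lay in 14 of the 40 spots and 24 of them in 1 spot, without which the ratio was 2.46. Untrained members held 80 UMIs in 26 spots, at a log2 ratio of 1.17 (0.82 to 1.48). Against the spots within 5 steps the ratios were 2.19 (1.86 to 2.49) and 1.29 (0.91 to 1.63).

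Of 15 measured genes of prohormone processing, Baiap3 and Resp18 were higher in both sections, beside 0.257% of all genes. The list median was -0.03 in the trained section and 0.30 in the untrained section, beside -0.05 and -0.03 for all genes. Pcsk1, a prohormone convertase, had 0 UMIs in trained members and 13 in untrained members, where its log2 ratio was 1.26 (0.29 to 2.00).

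Imprinted genes, many of which are rich in the hypothalamus, lay above the remaining spots more broadly. Of 17 compared, 15 had a log2 ratio above 0 in the trained and 16 in the untrained section, with medians of 0.36 and 0.76. Of all 9329 genes compared, 46.4% in the trained and 47.1% in the untrained section were above 0. Usp29 alone of the 17 was 2-fold higher in both, beside 0.257% of all genes. Magel2, a neighbour of Ndn that was left out for having under 300 UMIs in a section, had 2.73 (1.30 to 3.72) from 7 UMIs and 2.68 (1.59 to 3.49) from 11. Igf2, a growth factor gene, was the 1 gene of the 17 that was 2-fold lower in both sections, beside 0.75% of all genes. It stood at -1.94 from 1 UMI and -1.29. Nap1l5 was the most abundant of those that were 2-fold higher in the untrained section, at 0.81 (0.69 to 0.93) in trained and 1.42 (1.32 to 1.52) in untrained members. Ndn had 0.67 and 1.13, and Peg3 0.65 and 1.01.

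Of 14 compared genes of other lateral hypothalamic peptides, 6 were 2-fold higher and 3 lower in untrained members, beside 2.07% and 4.57% of all genes, and 1 was higher and 3 lower in trained members, beside 1.23% and 2.80%. Cck, the cholecystokinin precursor, was among the lower in the untrained section, at -1.84 (-2.07 to -1.63), and had -0.46 in the trained section. Tac1, the precursor of substance P, was at 318 UMIs in 35 of 40 members, or 568 CPM against 61.6, a log2 ratio of 3.21 (3.03 to 3.37). In trained members it was at 21 UMIs, or 86.8 CPM against 94.0, with a log2 ratio of -0.08 (-0.81 to 0.50). Nts, the neurotensin precursor of other lateral hypothalamic neurons, was at 84 UMIs and 3.22 (2.87 to 3.54) in untrained members, with 26 of its UMIs in 1 spot, without which the ratio was 2.77. In trained members it was at 7 UMIs, 6 of them in 1 spot.

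Penk, the enkephalin precursor, went opposite ways. Untrained members held 168 UMIs, or 300.1 CPM against 71.3, a log2 ratio of 2.08 (1.84 to 2.30), and trained members held 27 UMIs, or 112 CPM against 252, a log2 ratio of -1.15 (-1.77 to -0.63). The 10 highest Penk spots of the trained section lay in columns 10 and 11 and in columns 115 to 124, near both lateral edges. Against the spots within 5 steps the trained ratio was 0.59. Adcyap1, which encodes PACAP, had 48 UMIs in untrained members at 2.18 (1.71 to 2.58) and 1 UMI in trained members. Crh, the corticotropin-releasing hormone, had 9 UMIs at 2.21 (0.98 to 3.08), and 2 UMIs in trained members.

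Transcription factors of the hypothalamus and subthalamic region were also present in the untrained members. Ebf3 had 22 UMIs and a log2 ratio of 3.07 (2.35 to 3.67), and Barhl1 22 UMIs and 4.46 (3.70 to 5.11). Foxa1 had 10 UMIs, Lmx1b 6, Lmx1a 5 and Nkx2-1 6. In trained members Ebf3 had 1 UMI and Barhl1, Foxa1, Lmx1a, Lmx1b and Nkx2-1 had none. Foxb1, of the posterior list read below, went the other way. It had 2 UMIs in trained and 1 in untrained members, at 4.46 (1.01 to 6.34) and 0.07. Of the 13 genes of that list, 11 had 0 UMIs in trained members and 3 in untrained members. Dlk1, Gpr101 and Pbx3, with log2 ratios of 2.44, 2.37 and 2.23 in untrained members, completed the neuronal genes at the top of that section. These genes of the untrained section alone, Barhl1, Foxa1, Lmx1a, Lmx1b and Nkx2-1 apart, were named after their values had been seen.

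The 26 spots of the untrained patch were next set against the 140 surrounding spots within 5 steps that were not members, which share the position of the patch. Tac1 remained apart, at 602 CPM against 112, a log2 ratio of 2.43 (2.17 to 2.69), from 283 and 225 UMIs. On far fewer UMIs, Barhl1 stood at 2.39 (1.41 to 3.42), from 21 and 17. Ebf2 stood at 2.54 (0.71 to 4.58), from 7 and 5 UMIs, with 3 of the 7 in 1 spot. Penk was at 1.01 (0.71 to 1.31), Nts at 0.86 (0.45 to 1.25) and Hap1 at 0.65 (0.36 to 0.93). Gpx3 at 0.20 (-0.19 to 0.55) and Mrap2 at 0.24 (-0.41 to 0.82) had intervals that held 0. Gad1 and Gad2 were lower in the patch, at -0.72 (-1.17 to -0.32) and -0.49 (-0.93 to -0.10).

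Tac1 and Pmch did not peak in the same spots. The spot with the most Pmch held 0 Tac1 UMIs among 12625, with a counting interval that reaches 292 CPM, and the level of Tac1 was 146 CPM at 1 step and 421 at 3 steps. Penk was at 79.2 CPM, or 1 UMI, in the centre spot and at 342 at 3 steps. Nts reached 198 CPM at 6 steps. Pmch had fallen to 239 CPM at 3 steps and to 77.1 at 6. Tac1 was thus highest away from the centre spot. Penk and Nts, with 1 UMI each in the centre spot and intervals there of 2.01 to 441 CPM, could not be ordered between the centre and their higher values further out.

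Lower in the members of both sections were 70 of 9329 genes (0.75%), with 511 of 11182 (4.57%) lower in the untrained and 262 of 9348 (2.80%) in the trained section. Markers of the cortex and hippocampus were among them. Slc17a7, the glutamate transporter of cortical neurons, had log2 ratios of -1.38 (-1.93 to -0.92) and -1.86 (-2.23 to -1.53), and Neurod6, a transcription factor of cortical excitatory neurons, -2.10 and -3.02. Lamp5 had -1.97 and -1.22 and Crym -3.38 and -2.22. The dorsal telencephalon list of 12 genes had a median of -0.78 in trained and -1.63 in untrained members, with 3 genes 2-fold lower in the trained and 9 in the untrained section.

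Ttr had 1179 CPM in trained members against 5439 in the remaining spots, a log2 ratio of -2.20 (-2.38 to -2.04), and -2.84 (-2.91 to -2.76) in the untrained section. Choroid plexus markers summed to 1452 CPM in trained members, against 5880 in the remaining spots, and to 2874 against 19616 in untrained members. Npy, the neuropeptide of cortical and striatal interneurons and of the arcuate nucleus, had -2.13 (-3.26 to -1.32) and -1.97 (-2.64 to -1.43), and Sst, the somatostatin precursor, had -0.89 and -1.51. Lpl had 0 trained and 1 untrained UMIs, and Rab37 0 in both.

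Of 5 compared genes of ependymal cells and tanycytes, the cells that line the ventricles, 1 was 2-fold lower in trained and 4 in untrained members, beside 2.80% and 4.57% of all genes, with medians of -0.77 and -1.89. Oligodendrocyte genes, 12 in number, had medians of -0.04 in trained and -0.20 in untrained members, and microglial genes, 10 in number, 0.25 and -0.24. Of 6 compared genes of the striatum and amygdala, 5 were 2-fold lower in trained members, beside 2.80% of all genes, and 3 were 2-fold higher in untrained members, beside 2.07%. This list shares Tac1 and Penk with the peptides above, at 568 and 300 CPM of its 968 CPM in untrained members. It is therefore not a separate reading of cell type there. Thalamic genes, 12 in number, had medians of 0.18 and -0.83. The 7 compared meningeal and mural genes had medians of -0.22 and -0.95, and the summed level of the list ran from 0 to 98315 CPM over the untrained members, with a median of 1526. The part of these cells in the other results was not tested.

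Immediate early genes, which neurons switch on with activity, were read because the study turned on them. Arc was at 4 UMIs in trained and 13 in untrained members, with log2 ratios to the remaining spots of -2.02 (-4.07 to -0.83) and -1.50 (-2.46 to -0.78). Egr1 had 18 and 19 UMIs, at -0.99 (-1.78 to -0.37) and -1.95 (-2.72 to -1.34), and Egr3 3 and 10 UMIs, at -1.96 and -1.62. Jun had -0.62 (-1.83 to 0.23) and -1.04 (-2.01 to -0.32), and Fos -0.49 and -0.52 with intervals that held 0. Of 19 listed genes compared, none was higher in either section and 4 were lower in both, with medians of -0.50 in trained and -0.89 in untrained members. Of all genes, 0.75% were lower in both. Against the spots within 5 steps the untrained ratios were -0.01 (-1.01 to 0.75) for Arc, -0.36 (-1.51 to 0.50) for Egr3 and -0.59 (-1.38 to 0.04) for Egr1, whose intervals held 0, and -0.86 (-1.84 to -0.12) for Jun. The trained ratios were -1.82 (-3.87 to -0.63) for Arc, -1.37 (-3.88 to -0.03) for Egr3 and -0.68 (-1.48 to -0.05) for Egr1. Against the spots richest in Oxt and Avp, Arc had 1.16 (-1.49 to 4.77) in trained and 0.16 (-1.09 to 1.42) in untrained members, and Egr3 had 0 UMIs in those trained spots.

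Between the sections, Pmch in members was lower in the trained section by a log2 ratio of -2.66 (157 against 1007 CPM). Hcrt was higher there by 1.90 (41.4 against 10.7). Both genes chose the members, so the 2 ratios describe the chosen spots. Over the whole sections, of 29515831 trained and 59029131 untrained UMIs, Pmch had 56 and 773 and Hcrt 15 and 44. In the remaining spots Hcrt was lower in the trained section, at 0.174 against 0.652 CPM. Among 2577 genes with at least 50 UMIs over the members of both sections, 62 (2.41%) were at least 2-fold higher in trained members and 55 (2.13%) in untrained members. The split between the directions varied with the setting. Relative to the remaining spots 14 of 46 genes were higher in trained members, with 80 members 196 of 264, and without isolated members 42 of 111. Some of the largest held for the remaining spots too. Nme7, which overlaps other genes on the opposite strand, was at 2.77 in members and 3.38 in the remaining spots, Bc1, a neuronal noncoding RNA, at -3.56 and -3.43, Lrrc17 at -2.82 and -3.42, and mt-Atp8 at -2.08 and -1.95. For these genes the members differed as the whole libraries did.

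With the ratio of the remaining spots taken off, the genes furthest apart among these 2577 were mostly peptides and haemoglobins. Tac1 stood at -3.29, Penk at -3.22, Nts at -2.70 and Oxt at -1.61, all lower in trained members relative to their section. The Oxt value rested on few spots. Of the 55 trained Oxt UMIs, 37 lay in 1 spot, and 2 spots held 63.9% of the 36 untrained ones. Hba-a1 stood at 2.74, Hba-a2 at 2.75, Hbb-bs at 2.48, Tac2 at 1.65 and Prkcd, a protein kinase C that is abundant in the thalamus, at 1.43. Of the 761 Hbb-bs UMIs of the trained members, 580, or 76.2%, lay in 1 spot at grid row 58 and column 86. Without the 1 member richest in the gene, the trained log2 ratio to the remaining spots went from 1.11 to -0.92 for Hbb-bs, from 1.48 to -0.77 for Hba-a1 and from 1.49 to -0.61 for Hba-a2. A single spot thus decided the direction of all 3 haemoglobin genes in the trained section.

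How far the planes differed was read from 3 lists of genes that mark the anterior, tuberal and posterior hypothalamus, in members and the spots within 5 steps of one, 1430 spots in the trained and 511 in the untrained section. Scattered trained members made the trained area much larger. The median log2 ratio of trained over untrained of all 12306 genes compared was 0.09. The posterior list had a median of -3.14, and of its 12 genes compared 10 were higher in the untrained section, with a counting interval clear of no difference, and none in the trained. By the same rule 15.6% of all 15234 genes with at least 10 UMIs were higher in the untrained and 26.7% in the trained section. Barhl1 was at 0.38 CPM in the trained against 12.2 in the untrained section, Foxb1 at 0.87 against 11.4 and Hdc, the histidine decarboxylase of the histamine neurons, at 1.83 against 11.7. Irx3 was at 1.83 against 9.01, and Foxa1 was seen at 1 UMI in the trained area and at 46 in the untrained one.

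The anterior list had a median of 0.80, and 5 of its 7 genes compared were higher in the trained section. Lists of other regions moved as far over the same spots, with all 12 thalamic genes higher in the trained section at a median of 1.15 and 10 of 12 dorsal telencephalic genes at a median of 0.79. Oxt was at 1405 CPM against 235, Trh, the thyrotropin-releasing hormone, at 40.4 against 18.8, Avp, the vasopressin precursor, at 33.4 against 21.3 and Vip at 19.4 against 8.56. Sim1, a transcription factor of the paraventricular nucleus, went the other way, at 1.44 against 4.36. The untrained Oxt is the gene whose UMIs repeated the trained pattern at shared barcodes. The tuberal list had a median of -0.53 with 2 of 7 genes higher in the trained section and 3 in the untrained one, and its genes Kiss1 and Nr5a1 were at 0 in both.

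At the same grid positions in both sections, the spots within 5 steps of the untrained patch numbered 207 in the trained and 168 in the untrained section. There the posterior median was -3.27, or -2.40 with the genes at 0 in the trained section set at their bound, and 8 of 10 genes compared were higher in the untrained section, beside 7.23% of all genes, with 17.5% higher in the trained section. The anterior median was 0.43 and the tuberal median 0.83. Of 7 anterior genes compared, 3 were higher in the trained section and 1 in the untrained one. The thalamic list had a median of 0.44 at these positions. Over the whole sections the medians were 0.53 for the anterior, -0.03 for the tuberal and -1.88 for the posterior list. The striatum and amygdala list stood at 1.71 there, with all 10 genes higher in the trained section, and the thalamic list at -0.06. In all 3 areas compared the posterior median lay on the side of the untrained section and the anterior median on that of the trained section, while the tuberal median changed side. The 3 areas overlap, so they are not separate readings, and in each a list of another region moved as far as the anterior list.

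**Figure D5:**
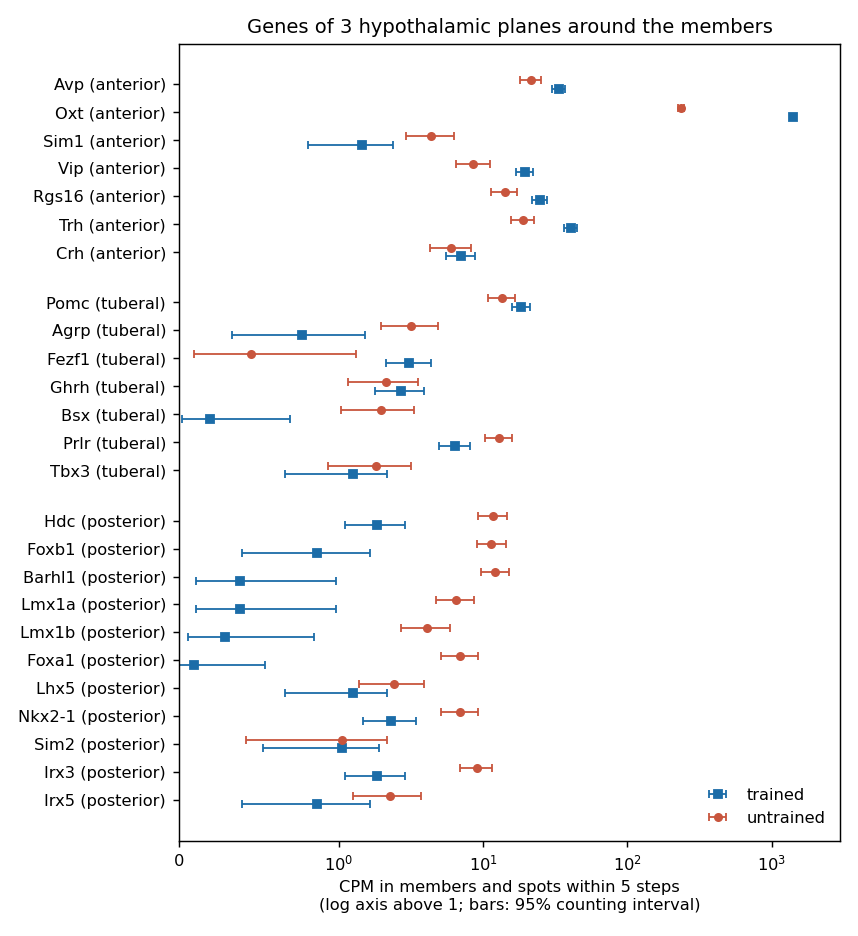
CPM of genes of the anterior, tuberal and posterior lists in members and the spots within 5 grid steps of a member (horizontal axis, log scale above 1). Squares are the section labelled trained, circles the section labelled untrained, and bars are 95% counting intervals. Oxt stands at 1405 against 235 CPM in favour of the trained section, and Barhl1 at 0.38 against 12.2 in favour of the untrained section.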

How the data were processed

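The authors aligned and counted reads with Space Ranger 2.0.0 against the 10x mouse reference on mm10, and the deposited matrices hold raw counts of UMIs per gene and spot. The deposited spatial tables gave counts per gene and a score by the authors, Moran's I. Their p-values, normalized averages and images were not used. Whether counting used strand is not given in the sources used here, and 56 of 167 named genes overlap a gene on the other strand.

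Computation used scipy 1.17.1, numpy 2.4.6 and pandas 2.3.3 under Python 3.11.15, figures matplotlib 3.10.9, and positions came from GENCODE M21 on mm10. Groups came from the sample titles, 1 section each. Spots with at least 2000 UMIs were ranked in each section by the Pmch and Hcrt score, and ties followed barcode order. UMIs were pooled and scaled to 1000000. Log2 ratios used a pseudocount of 0.5 UMI. A gene was counted when its ratio was at least 2-fold and its 95% interval excluded no difference, among genes with at least 300 UMIs in each section, or in the untrained section for counts of that section alone. Intervals were exact Poisson for levels, Clopper-Pearson for shares (a share of 0 has the limit of 3 counts) and conditional binomial for ratios, and covered counting error only. A list is described by counts and its median. The scripts were tested on simulated data.

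Named genes were the members of the companion and receptor lists, the 20 genes with the highest lower-of-both-sections ratio, the 8 lowest, the 5 highest and 5 lowest between sections before and after the ratio of the remaining spots was taken off, up to 4 genes of each list, the plane genes and Arc, Egr1, Jun and Fos. Members and lists were chosen with earlier results of these data known. Alternatives varied the minimum depth, the number of members, isolated members, thinning to 2000 UMIs, mitochondrial genes, the pseudocount, the spots compared against, and the minimum UMIs per gene. Sequencing reads were not analysed here, and some genes of the lists are not reported here.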

Additional observations from a re-analysis of the deposited data

Results flagged for a closer look

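For 6 of the named genes the members were at least 2-fold above their remaining spots in one section and at least 2-fold below them in the other, with both 95% counting intervals clear of no difference. With 1 section each, these differences were not tested. The values are log2 ratios of members over remaining spots, trained minus untrained. Penk differed by -3.22. The haemoglobin genes Hbb-bs, Hba-a1 and Hba-a2 differed by 2.48, 2.74 and 2.75, and a single trained spot held 580 of the 761 Hbb-bs UMIs. Rgs9, a regulator of G protein signalling of the striatum, differed by -4.87, from 0 UMIs in trained and 10 in untrained members, so its size depends on the pseudocount. Drp2, a dystrophin-related gene, differed by 3.32, from 11 UMIs in trained and 2 in untrained members.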

How the results depend on the processing

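No paired analysis was possible because each group holds 1 section. The sharing, subtraction, patch, same-position and most-UMI alternatives were chosen after seeing the data, and causes of changes were not tested unless stated. Genes higher in both sections, 24 as reported, numbered 12 with 20 members, 15 with 80, 12 after thinning, 1 against spots within 5 steps, 8 against Oxt and Avp spots, 14 without trained members at barcodes with untrained Pmch or Hcrt, and 12 at a minimum of 1000 UMIs per gene. Genes lower, 70 as reported, numbered 25 with 80 members, 9 after thinning, 46 at a pseudocount of 2, and 16, 12 and 32 in the same 3 comparisons of spots. Genes apart between sections, 117 as reported, numbered 264 with 80 members, 33 after thinning, 351 and 23 at minimums of 20 and 200 UMIs, and 46 relative to the remaining spots. The Pmch ratio of -2.66 became -2.07 after thinning and -3.50 after the same-barcode subtraction.

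The anterior median of 0.80 became 0.95 without isolated members, 0.43 at the same positions and 1.01 after subtraction. The tuberal median of -0.53 became -0.15 with 80 members and turned to 0.83 at the same positions. The posterior median of -3.14 became -2.45 with 80 members, -2.42 without isolated members and -4.02 after subtraction.

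Of 2080 values for 80 named genes, 1744 stayed inside the reported interval, 275 moved and 61 turned sign. With 20 members, trained Hba-a1 gave -1.003, Hba-a2 -1.08 and Hbb-bs -1.08. Without trained members at barcodes with untrained Pmch or Hcrt, trained Hba-a1 gave -1.24, Hba-a2 -0.99 and Hbb-bs -1.05. Without the richest spot, trained Hba-a1 gave -0.77, Hba-a2 -0.61 and Hbb-bs -0.92. Against spots within 5 steps, trained Ttr gave 0.20 and Penk 0.59, and untrained Itih3 -0.18, Prkcd 0.18 and Lamp5 0.36. Thinned untrained Lhx9 gave 0.89.

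Against Oxt and Avp spots the trained values were Mrap2 -0.16, Igsf1 -0.18, Usp29 -0.37, Sparc -0.61, Itih3 -0.85, Hap1 -1.08, Nnat -1.09, Baiap3 -1.23, Ngb -1.24, Gpx3 -1.25, Resp18 -1.52, Penk 0.067, Lamp5 0.84, Npy 0.9999, Arc 1.16, Slc17a7 1.89, Egr3 3.12 and Neurod6 3.12, these last 2 set by the pseudocount, since the spots compared held 0 UMIs of them. The untrained values were Cd83 -0.068, Nkx2-1 -0.16, Igsf1 -0.17, Hap1 -0.18, Ebf3 -0.19, Dlk1 -0.21, Adcyap1 -0.23, Ndn -0.26, Nap1l5 -0.26, Sparc -0.27, Peg3 -0.33, Scg2 -0.35, Agt -0.38, Resp18 -0.42, Rgs9 -0.42, Glra2 -0.55, Pcsk1 -0.56, Baiap3 -0.56, Itih3 -0.82, Gpx3 -0.82, Ngb -0.91, Npy 0.10, Arc 0.16, Slc17a7 0.37, Crym 0.39, Egr3 0.53, Prkcd 0.80 and Lamp5 0.88.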
